A study of Mus musculus with 11 samples.

Results

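The renin-angiotensin system was represented by 6 genes, Ren1, Agt, Ace, Agtr1a, Agtr2 and Atp6ap2, taken by symbol from the 24427 genes measured in both deposited expression tables. Messenger RNA had been sequenced from cells sorted out of the developing kidney in mice of the outbred CFW strain, to profile nephron progenitor cells. The 11 libraries formed 4 groups. E16.5 kidneys of the genotype Six2TGC/+ were separated into Six2+ cells (n = 3) and Six2- cells (n = 3), E16.5 kidneys of the genotype Cited1tagRFP/+ gave Cited1+ cells (n = 3), and kidneys of Six2TGC/+ mice at postnatal day 2 (P2) gave Six2+ cells (n = 2). Each sort therefore depends on a transgenic marker, and the Six2- cells are the mixed remainder of the kidney rather than 1 cell type. The Cited1+ and P2 Six2+ groups differ at once in age, genotype and marker, which cannot be told apart. Nothing in the labels says that libraries come from different animals, and every p-value below therefore reflects scatter among libraries that could be purely technical.

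In this hormone system the protease renin cuts angiotensinogen to angiotensin I, and angiotensin-converting enzyme turns that into angiotensin II, which acts through type 1 and type 2 receptors. In the embryonic kidney of the mouse, renin cells derive from the Foxd1-expressing stroma and line growing arteries, and type 2 receptors are known for their expression in fetal mesenchyme. Loss of angiotensinogen, converting enzyme or type 1 receptors in mice disturbs the renal papilla and vessels.

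The members divided into 3 kinds in these cells. Agtr2 and Ren1 were abundant in the Six2- remainder and at or near 0 in E16.5 Six2+ progenitors, and Agtr1a had the same order at a lower level. Ace stayed low in every library, and Agt was barely detected in any of them. Atp6ap2 was present at similar levels in all 4 groups. In the comparison of Six2+ with Six2- cells 4 of the 4 members tested were lower in Six2+ cells. Of all 11882 genes tested 18.1% were lower and 38.6% passed in either direction. Testing needed a mean level of at least 1 over the libraries compared, which Agt and Ace did not reach. Ren1, Agtr1a and Agtr2 reached it only through the Six2- libraries, so the filter favoured their direction and the count is a description. Of the 4 members tested between Cited1+ and P2 Six2+ cells 0 passed in limma, where 29% of 11876 genes passed in either direction, and 1 of the 4, Ace, had an unadjusted p below 0.05 (0.0195).

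Promoter sequences from RefSeq on GRCm38.p6 were matched for 5 of the 6 members. Of the 3 members with the highest levels, Ren1 and Agtr2 were much lower in Six2+ than in Six2- cells. The third, Atp6ap2, was present at similar levels in all 4 groups. The sequences of these 3 members are shown. Each runs from 250 bases before to 50 bases after the annotated start of the gene, 5′ to 3′ on the gene's own strand. Capitals mark matches on either strand to 4 motifs. The TATA box was searched as TATAAA and the GC box was searched as GGGCGG. The CCAAT box was searched by the letters of its name. A homeodomain element, known from the mouse renin promoter, was searched as TGATTTAT. The Ren1 window is chr1:133350424-133350723, the Agtr2 window chrX:21484374-21484673 and the Atp6ap2 window chrX:12587509-12587808, all on the plus strand.
Ren1: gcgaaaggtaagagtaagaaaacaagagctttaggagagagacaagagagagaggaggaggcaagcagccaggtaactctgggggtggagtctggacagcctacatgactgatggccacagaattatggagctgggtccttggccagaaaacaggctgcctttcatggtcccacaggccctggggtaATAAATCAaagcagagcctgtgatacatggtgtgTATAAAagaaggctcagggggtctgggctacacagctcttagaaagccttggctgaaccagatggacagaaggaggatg
Agtr2: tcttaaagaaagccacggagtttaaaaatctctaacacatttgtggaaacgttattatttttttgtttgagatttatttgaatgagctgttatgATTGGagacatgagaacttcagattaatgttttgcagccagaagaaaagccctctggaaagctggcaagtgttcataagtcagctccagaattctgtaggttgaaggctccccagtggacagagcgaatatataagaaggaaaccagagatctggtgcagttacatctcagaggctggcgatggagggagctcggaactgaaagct
Atp6ap2: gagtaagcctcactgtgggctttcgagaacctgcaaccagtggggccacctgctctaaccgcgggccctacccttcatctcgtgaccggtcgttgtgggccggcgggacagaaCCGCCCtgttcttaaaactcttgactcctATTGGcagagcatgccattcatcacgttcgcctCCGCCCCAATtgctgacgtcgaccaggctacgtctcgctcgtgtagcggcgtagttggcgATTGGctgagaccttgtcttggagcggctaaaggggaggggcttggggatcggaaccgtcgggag
The Ren1 window held TATAAA at position -29 from the start and TGATTTAT on the minus strand at position -63. Among 32851 promoters of this length 13.6% held TATAAA and 0.977% held TGATTTAT. Of the exact letters searched, the Agtr2 window held only CCAAT, on the minus strand at position -156, a motif present in 37.4% of promoters. It also held the TATA-like letters tatataag shortly before the start. The search for TATAAA does not match these, so the lack of a TATA box cannot be read from it. Only 41.3% of the bases of the Agtr2 window were G or C against a median of 52.7%. In the Atp6ap2 window, which held 24 CpG dinucleotides and 60.3% G and C, GGGCGG occurred on the minus strand at positions -137 and -75, and CCAAT occurred at 3 places. GGGCGG was present in 35.7% of promoters. These matches describe the letters of the windows; binding was not measured.

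Levels are given on the RPKM scale (reads per kilobase of transcript and per unit of sequencing depth), so different genes can be set side by side. Low values moved in steps of whole reads that imply totals between 16500000 and 44000000 reads. Differences between groups are differences of log2(value + 1) with their SE, tested with limma and called at a Benjamini-Hochberg adjusted p below 0.05, and they understate the change of low genes. A gene near 0 in 1 group is tested only where the other group lifts its mean to 1, so counts of tested members and markers favour the higher group. The labels do not say whether the tables of the Six2+ and Six2- libraries and of the Cited1+ and P2 libraries were normalized together. Levels across them are therefore set side by side without a test. Six2 was 315 to 354 in E16.5 Six2+ cells, 129 to 146 in P2 Six2+ cells and 279 to 374 in Cited1+ cells. In Six2- cells Six2 was 2.72, 2.90 and 17.0, and replicate 3, the highest, also had the lowest sum of stromal, mural and endothelial markers and the highest sum of erythroid markers. Cited1 was 193 to 215 in Cited1+ cells and 2.83 to 4.68 in P2 Six2+ cells. In bulk samples, fewer cells of a type and less RNA per cell cannot be told apart.

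Agt (chr8:124556587-124569706) encodes angiotensinogen, the substrate of renin. In Six2+ cells its level was 0, 0.0141 and 0, and in Six2- cells 0.0304, 0.0740 and 0. In Cited1+ cells it was 0.0479, 0.0880 and 0.185, and both P2 libraries were at 0. Agt was therefore highest in the Cited1+ libraries, but these levels correspond to at most about 10 reads in any library, too few to read a fold from. It lay below the minimum mean level of 1 in both comparisons, and a difference was not detectable at this depth.

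Ren1 (chr1:133350674-133360320) encodes renin, which sets the rate of the cascade. In the 3 Six2+ libraries it was 0, 0.0546 and 0, about 3.4 reads in all. In the Six2- libraries it was 15.7, 19.8 and 3.61, all above every Six2+ library. The difference was -3.52 ± 0.48 (SE, adjusted p = 0.000451), a size that depends on the pseudocount because Six2+ cells were almost empty of Ren1, and was -6.51 with 0.1 in place of 1. Replicate 3 of the Six2- cells was the low one, and without it the difference was -4.20 (adjusted p = 5.22e-07).

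In the other table Ren1 was 2.48, 4.15 and 6.54 in Cited1+ cells. The P2 Six2+ libraries gave 4.24 and 0.0411, so that 1 lay inside the Cited1+ range and the other held about 1.1 reads. The difference of 1.13 ± 0.63 had a 95% interval from -0.35 to 2.62 (adjusted p = 0.208). It rested on which P2 library was kept, since it was 2.30 (adjusted p = 0.0215) without replicate 1 and -0.03 (adjusted p = 0.965) without replicate 2. The lowest Cited1+ library exceeded the highest E16.5 Six2+ library, a contrast across tables that was not tested. Some mouse strains carry a near-identical second renin gene, Ren2. It was listed at 0 to 0.116 over the 11 libraries, and reads shared between the copies could be assigned to either, so Ren1 stands for the pair.

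**Figure D1:**
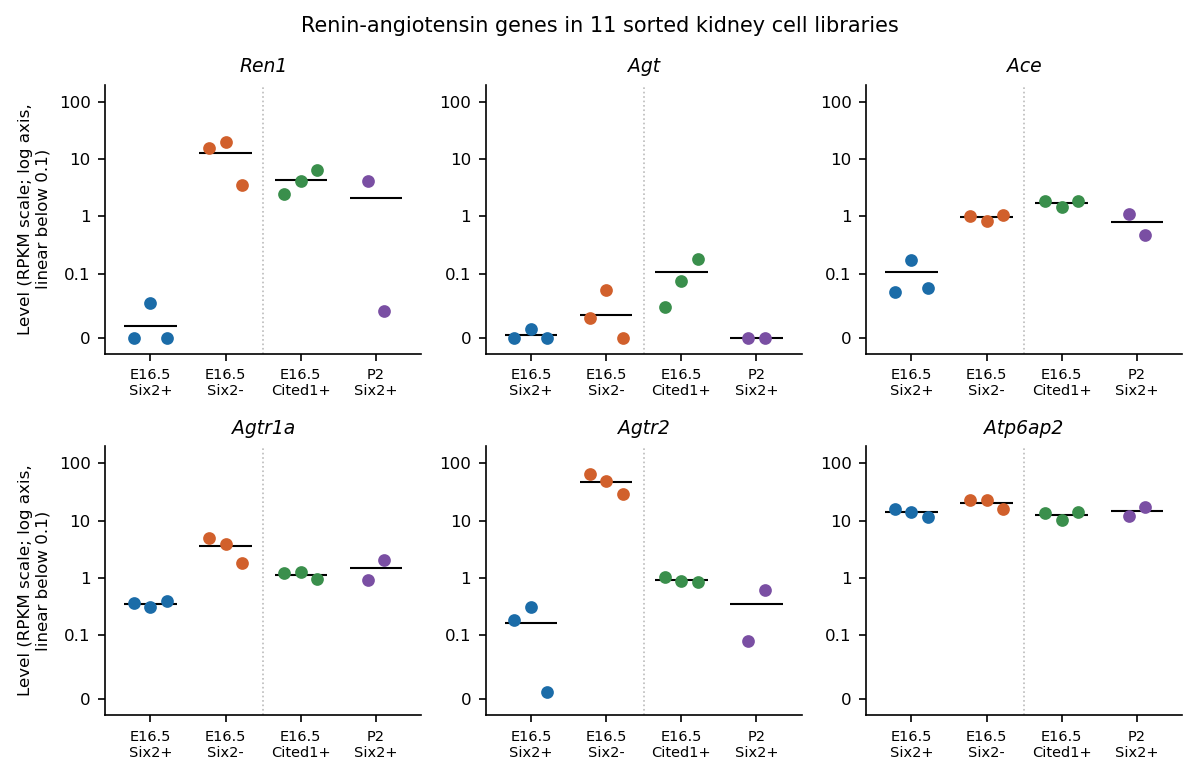
Level of each renin-angiotensin gene (RPKM scale, log axis that becomes linear below 0.1) in the 11 libraries; points are libraries, bars are group means, and the dotted line separates the 2 tables. Agtr2 lies between 29.0 and 64.3 in Six2- cells and at or below 1.04 elsewhere, whereas Atp6ap2 lies between 10.3 and 22.8 in all libraries.

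Ace (chr11:105967948-105989964) encodes angiotensin-converting enzyme, which is abundant on endothelium and on the proximal tubule brush border of the mature kidney. It was 0.0718, 0.171 and 0.0779 in Six2+ cells and 1.01, 0.828 and 1.05 in Six2- cells. The Six2+ libraries were all lower, but the mean over the 6 libraries was below 1 and Ace was not among the genes tested. With no filter on level its difference was -0.82 ± 0.07 (adjusted p = 0.000421).

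Cited1+ cells had the highest Ace, at 1.86, 1.45 and 1.89. The P2 libraries had 1.12 and 0.479, both below every Cited1+ library, as is the case for 33.9% of all genes tested. The difference was 0.62 ± 0.21, with a 95% interval from 0.13 to 1.11, and did not pass (adjusted p = 0.0609). It was 0.88 without P2 replicate 1 and 0.36 without P2 replicate 2, so its size depended on which P2 library was kept. Among the alternatives that kept both P2 libraries, it passed only when limma was run without a trend (adjusted p = 0.0431). It did not pass with no level filter (adjusted p = 0.128), with same-numbered libraries paired (0.152) or without any 1 Cited1+ library (0.0523 to 0.19). Proximal tubule markers moved the same way: 4 of the 7 tested were higher in Cited1+ cells, where 16.3% of all genes were higher. Their sum over 12 genes was 21.0 to 26 in Cited1+ cells and 8.83 to 15.3 at P2, with none of the 12 at 0 throughout a group. That count was 2 without Cited1+ replicate 1 or 3 or P2 replicate 2. Whether tubule cells in the sort contribute to Ace was not tested.

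Agtr1a (chr13:30336356-30382867) encodes the main type 1 receptor for angiotensin II. It was 0.364, 0.306 and 0.402 in Six2+ cells, and 4.90, 3.94 and 1.86 in Six2- cells. The groups did not overlap, which for libraries of the first group all below those of the second held for 22% of genes. The difference was -1.69 ± 0.25 (adjusted p = 0.000821).

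In the other table Agtr1a was 1.2, 1.26 and 0.952 in Cited1+ cells and 0.912 and 2.06 at P2. The P2 libraries lay on both sides of the Cited1+ range. The difference was -0.18 ± 0.23, with a 95% interval from -0.72 to 0.36 (adjusted p = 0.571). Its paralog Agtr1b (chr3:20314473-20367177), a second type 1 receptor gene of rodents, was 0.342 to 0.623 in Six2- cells and at most 0.174 in any other library. It was at 0 in both P2 libraries.

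Agtr2 (chrX:21484624-21488833) encodes the type 2 receptor and showed the largest difference among the members. In Six2+ cells its level was 0.182, 0.307 and 0.0110. In Six2- cells it was 64.3, 50 and 29, which placed it between percentiles 90.5 and 96.3 of all genes. No Six2+ library came near a Six2- library, and the difference was -5.32 ± 0.26 (adjusted p = 1.2e-06), or -5.64 without Six2- replicate 3. In the authors' deposited table the Agtr2 ratio was 0.0037 (p = 0.0434), and the Ren1 ratio was still lower, at 0.00216. Agtr2 was the one member on any of their short lists of changed genes.

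Agtr2 was 1.04, 0.901 and 0.840 in Cited1+ cells and 0.0907 and 0.609 at P2. The P2 libraries were both lower, but Agtr2 fell below the level filter in this table. With no filter the difference was 0.54 ± 0.19, with a 95% interval from 0.05 to 1.03 (adjusted p = 0.147). In the authors' deposited table the ratio for this comparison was 9.32 (p = 0.00511), whereas the ratio of means with both P2 libraries was 2.61. Every ratio of that deposited comparison equals the value obtained with P2 replicate 1 alone.

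The balance of receptor genes differed between the sorts. In Six2- cells Agtr2 was 13.1, 12.7 and 15.6 times Agtr1a, and made up 91.6% to 92.9% of the summed level of the 3 receptor genes. The ratio stayed in a narrow range there, although the levels themselves spread widely over the same 3 libraries. In Cited1+ cells the ratio was 0.872, 0.717 and 0.882, close to equal levels, and at P2 it was 0.0994 and 0.296, with Agtr1a the higher gene. In Six2+ cells it was 0.5, 1 and 0.0274, from low levels of both genes. This ratio was chosen after the values were seen and is a description.

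**Figure D2:**
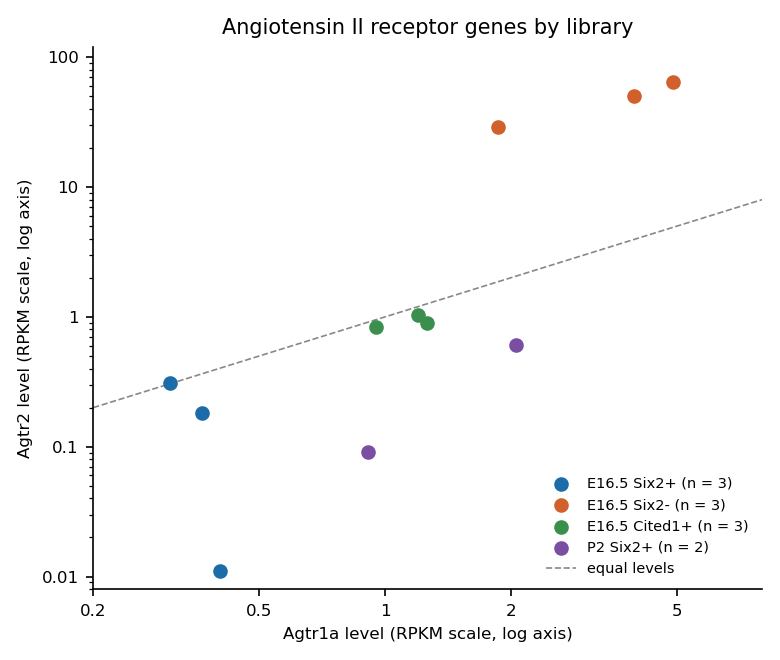
Agtr2 level against Agtr1a level in each library (both RPKM scale, log axes), with a dashed line at equal levels. The 3 Six2- libraries lie far above the line at ratios of 12.7 to 15.6, the Cited1+ libraries lie near it, and the P2 libraries lie below it.

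Atp6ap2 (chrX:12587759-12617051) encodes the prorenin receptor, which is also an accessory protein of the vacuolar proton pump (V-ATPase). It was 16.1, 14.2 and 11.6 in Six2+ cells and 22.8, 22.5 and 16 in Six2- cells. The groups touched, with the lowest Six2- library just under the highest Six2+ library. The difference of -0.51 ± 0.18 passed narrowly (adjusted p = 0.046) and did not pass with no level filter (adjusted p = 0.0806) or without any 1 of Six2+ replicates 2 and 3 and Six2- replicates 1 and 2 (adjusted p from 0.0854 to 0.152). With same-numbered libraries paired it was again called, at an adjusted p of 0.00301.

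In Cited1+ cells Atp6ap2 was 13.6, 10.3 and 13.9, and at P2 it was 11.9 and 17.2. The ranges overlapped, and the difference was -0.18 ± 0.19 with a 95% interval from -0.62 to 0.26 (adjusted p = 0.484). Across all 11 libraries Atp6ap2 kept between percentiles 75.3 and 87.2 of all genes.

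Set in order of group means, Agtr2 ran from Six2- cells (47.8 ± 17.8) through Cited1+ (0.928 ± 0.104) and P2 Six2+ (0.350 ± 0.366) to E16.5 Six2+ cells (0.166 ± 0.148), given as mean ± SD with n of 3, 3, 2 and 3. The P2 and E16.5 Six2+ ranges overlapped. Ren1 took the same order, at 13.0 ± 8.42, 4.39 ± 2.04, 2.14 ± 2.97 and 0.0182 ± 0.0315, and each pair of neighbours overlapped in range. Agtr1a differed in that P2 cells (1.49 ± 0.811) stood above Cited1+ cells (1.13 ± 0.162), within the P2 spread. For Ace, Cited1+ cells came first (1.73 ± 0.243), then Six2- (0.961 ± 0.118) and P2 (0.802 ± 0.456), which overlapped, and Six2+ cells last (0.107 ± 0.0558).

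The angiotensin peptidases, which trim angiotensin peptides, were split in the first comparison. Of 16 listed genes 14 were tested, and 6 were lower and 1 was higher in Six2+ cells, where 18.1% of all genes were lower and 20.5% higher, with a median difference of -0.16 against 0.12 for all genes. Enpep, the aminopeptidase A that degrades angiotensin II, was 2.17, 2.73 and 1.61 in Six2+ cells and 65.5, 45.1 and 24.9 in Six2- cells (-3.78 ± 0.31, adjusted p = 2e-05). Mme, which encodes neprilysin, was 0.685 to 1.08 against 17.0 to 24.9 (-3.53 ± 0.17, adjusted p = 9.81e-07). Anpep, which encodes aminopeptidase N, fell by 1.72 ± 0.16 (adjusted p = 5.08e-05). Cpa3 and Cma1, proteases of mast cells, were at most 0.0238 in Six2+ cells and between 2.59 and 7.26 in Six2- cells. Their differences were -2.83 ± 0.17 (adjusted p = 3.11e-06) for Cpa3 and -2.17 ± 0.18 (adjusted p = 2.02e-05) for Cma1.

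Thop1, a cytosolic oligopeptidase that can cleave angiotensin I, was the 1 called higher, at 34.0, 43.3 and 42.4 in Six2+ cells and 18.0, 21.4 and 20.7 in Six2- cells (0.95 ± 0.14, adjusted p = 0.000634). All Six2+ libraries were above all Six2- libraries, as for 29.9% of genes. The other 7 tested did not pass, with differences from -0.23 to 0.28. The count of 6 lower peptidases was the same under each of the 12 alternatives tried. Enpep, Mme and Anpep are also known as brush border enzymes of the proximal tubule, whose 12 listed markers summed to 2.52 to 2.91 against 13.4 to 19.2. Only 4 of them were tested, all lower in Six2+ cells, and Hnf4a, Slc34a1 and Aqp1 reached the filter only through Six2- cells. With no level filter Cubn, Slc5a2 and Slc22a6 were also lower, and Slc3a1, Slc5a12, Fbp1, Slc27a2 and Ass1 did not pass. Podocytes express Enpep and Mme in the mouse and human kidney. Podocyte markers were lower for 5 of 6, where 18.1% of all genes were lower, with sums of 5.68 to 7.86 against 22.9 to 100. The part of either cell type in the peptidase differences was not tested.

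**Figure D3:**
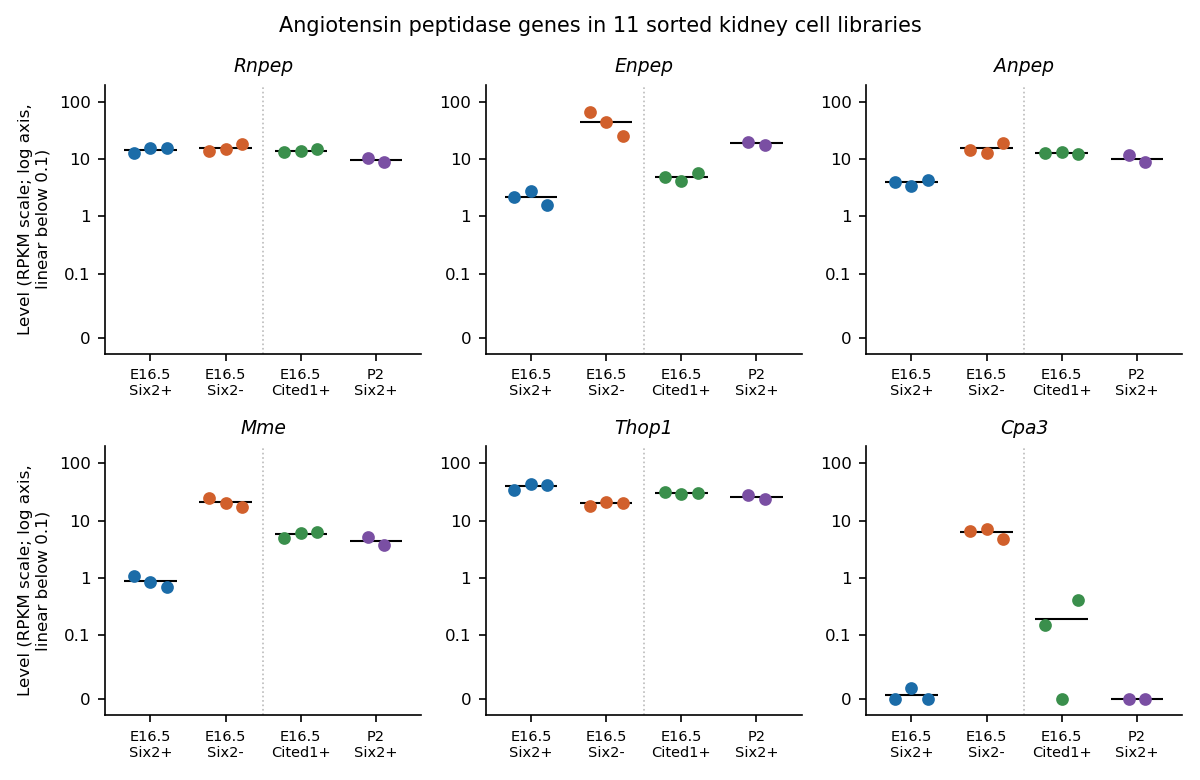
Levels of 6 angiotensin peptidase genes in the 11 libraries (RPKM scale, log axis that becomes linear below 0.1); points are libraries and bars are group means. Enpep, Mme, Anpep and Cpa3 are higher in every Six2- library than in any Six2+ library, Thop1 is lower, Rnpep overlaps, and Enpep is 17.5 to 20.2 at P2 against 4.23 to 5.70 in Cited1+ cells.

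Between Cited1+ and P2 cells 12 peptidases were tested, of which 2 were higher and 1 was lower in Cited1+ cells. These counts were close to the shares of all genes, 16.3% higher and 12.7% lower. The median peptidase difference was 0.25 against 0.07 for all genes. Enpep was 4.86, 4.23 and 5.70 in Cited1+ cells and 20.2 and 17.5 at P2, without overlap (-1.75 ± 0.14, adjusted p = 0.000212). Podocyte markers were also higher at P2, where 3 of 5 tested passed, against 12.7% of all genes lower in Cited1+ cells. Their sum was 39.6 to 49.2 at P2 against 8.07 to 15.8 in Cited1+ cells, and their part in the Enpep difference was not tested. Rnpep, which encodes aminopeptidase B, was 13.1, 14 and 15.1 against 10.3 and 8.99 (0.50 ± 0.12, adjusted p = 0.0202). No peptidase passed as higher without Cited1+ replicate 1 or 3, and 1 did without P2 replicate 2, while 1 was lower in each of these.

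Partners of the receptors were called at about the share of all genes. Of 11 listed genes 7 were tested, and in Six2+ cells 2 were lower and 1 was higher than in Six2- cells, where 38.6% of all genes passed in either direction. Arrb1, a beta-arrestin that binds activated type 1 receptors, was 4.22, 3.44 and 4.67 against 14.6, 13.2 and 12.2 (-1.49 ± 0.14, adjusted p = 5.2e-05). Arrb2 was 0.48 ± 0.15 higher (adjusted p = 0.0334), and Gnaq, the G protein subunit that couples type 1 receptors to phospholipase C, differed by -0.56 ± 0.19 with overlapping groups (adjusted p = 0.049). These last 2 calls were lost when Six2+ replicate 2 or 3, or Six2- replicate 1 or 2, was left out, each of which left 1 lower and 0 higher genes, and with no level filter (adjusted p = 0.0514 for Arrb2 and 0.0922 for Gnaq).

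In the comparison of Cited1+ with P2 cells 2 of 7 were lower and 0 higher, against 29% of all genes in either direction. Mtus1, whose product binds the type 2 receptor, was 1.91, 1.63 and 1.61 in Cited1+ cells and 5.27 and 5.26 at P2 (-1.21 ± 0.14, adjusted p = 0.00103). Arrb1 was 5.49, 5.74 and 5.82 against 8.62 and 8.84 (-0.54 ± 0.11, adjusted p = 0.0121). The count of 2 fell to 1 without Cited1+ replicate 1 and without either P2 library. Mas1, a receptor for shorter angiotensin peptides, was at most 0.151 in any library, and Mrgprd at most 0.0327.

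**Figure D4:**
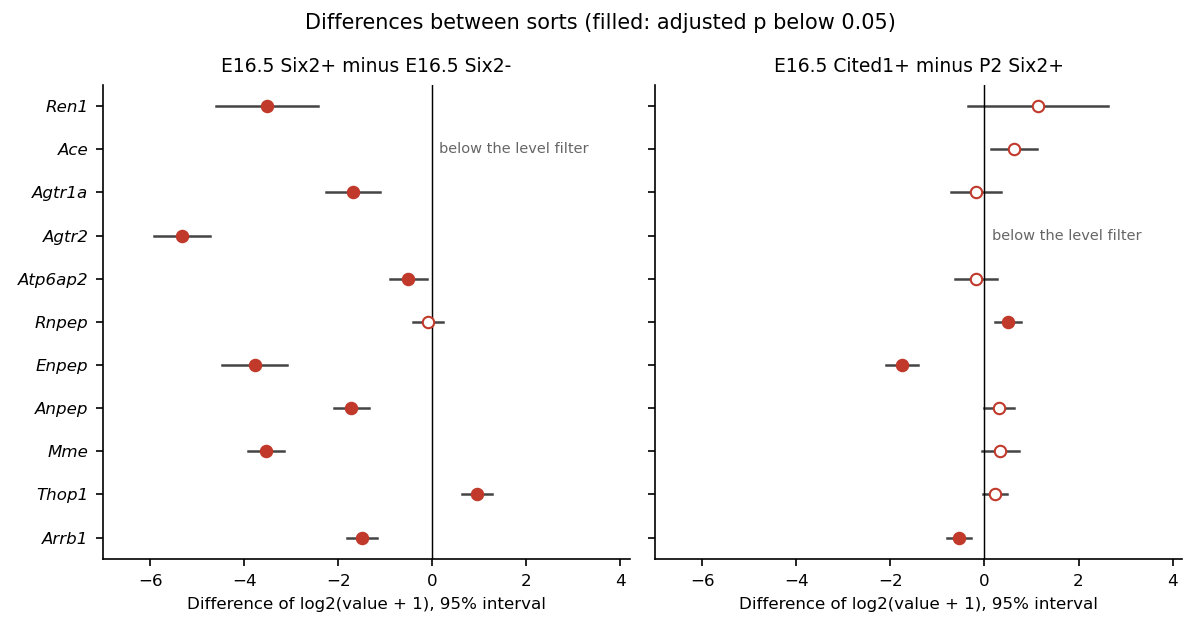
Differences of log2(value + 1) with 95% intervals for 5 members, 5 peptidases and Arrb1, for Six2+ minus Six2- cells and for Cited1+ minus P2 Six2+ cells; filled points passed at an adjusted p below 0.05. Differences reach -5.32 for Agtr2 in the first comparison, and in the second none of the members tested passed.

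Subunits of the V-ATPase, the complex that Atp6ap2 helps to assemble, included genes higher in Six2+ cells, unlike Atp6ap2. Of 17 tested 7 were higher and 0 lower than in Six2- cells, where 20.5% of all genes were higher, and the median was 0.34. Atp6v0e2 was 19.8, 18.0 and 16.3 against 3.19, 2.16 and 3.09 (2.33 ± 0.15, adjusted p = 5.92e-06). Atp6v1g2, a neuronal form of the G subunit, was 3.79, 3.62 and 5.07 against 1.29, 0.940 and 0.749 (1.37 ± 0.17, adjusted p = 0.000284), and Atp6v1f was 0.71 ± 0.17 higher (adjusted p = 0.0107). The count was 4 with median-ratio scaling and without Six2+ replicate 1 or 2 or any Six2- library, and with each library rescaled to 1 total it was 5 higher and 1 lower.

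Between Cited1+ and P2 cells 8 of 20 subunits were higher and 1 lower, where 16.3% of all genes were higher and 12.7% lower. Atp6v1b1, the B subunit of acid-secreting cells, was 5.64, 3.71 and 6.61 against 2.39 and 0.688 (1.37 ± 0.32, adjusted p = 0.019), and Atp6v0b was 0.85 ± 0.23 higher (adjusted p = 0.0308). Atp6v1g2 was 3.71, 4.41 and 2.86 against 7.40 and 7.14 (-0.84 ± 0.17, adjusted p = 0.0102). The higher count was 0 without Cited1+ replicate 1 or P2 replicate 2, 1 without P2 replicate 1, 2 without Cited1+ replicate 3, and 2 with no level filter, where neither Atp6v1b1 (adjusted p = 0.0927) nor Atp6v0b (0.117) passed. Ureteric bud and collecting duct markers were higher in Cited1+ cells for 7 of 10 tested, among them Tfcp2l1, at 10.3 to 13.5 against 1.07 to 1.84, and their part in these counts was not tested.

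Downstream of angiotensin II, the aldosterone response list had 2 of 8 genes tested in the first comparison. There 38.6% of all genes passed in either direction. Hsd11b2, which inactivates glucocorticoids in aldosterone target cells, was 62.7, 59.0 and 62.2 in Six2+ cells and 12.1, 7.81 and 4.18 in Six2- cells (2.89 ± 0.28, adjusted p = 6.21e-05). Sgk1, a kinase induced by aldosterone, was lower, at -0.92 ± 0.28 (adjusted p = 0.0319), a call lost without Six2+ replicate 1 or Six2- replicate 1 or 2, and with no level filter (adjusted p = 0.083). In Cited1+ cells 3 of 5 tested were higher than at P2 and 0 lower.

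These were Hsd11b2, at 30.1, 36.5 and 33.2 against 11.2 and 10.3 (1.54 ± 0.12, adjusted p = 0.000152), and the epithelial sodium channel subunits Scnn1g (1.45 ± 0.18, adjusted p = 0.00143) and Scnn1b (1.37 ± 0.21, adjusted p = 0.00357). The channel subunits are known for their place in the collecting duct, and the sum of the 12 ureteric and collecting duct markers was 92.9 to 127 in Cited1+ cells against 42.4 to 44.1 at P2. The part of such cells in these differences was not tested. Cyp11b1 and Cyp11b2, the last enzymes of corticosteroid synthesis, were at 0 in all libraries but 1, Cited1+ replicate 3, where they were 0.0340 and 0.222.

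Kallikrein-kinin genes, which act in opposition to angiotensin II, lay below the level filter in the first comparison for all 5 listed. In the second, Klk1, a tissue kallikrein, was 1.51, 0.739 and 1.97 in Cited1+ cells and 11.4 and 4.68 at P2 (-1.84 ± 0.35, adjusted p = 0.00922). Kng2, a kininogen, was 2.67, 3.33 and 4.13 against 1.84 and 0.191 (1.24 ± 0.35, adjusted p = 0.0366). The call of Klk1 was lost without P2 replicate 1, and that of Kng2 without each Cited1+ library in turn and without P2 replicate 2. Neither passed with no level filter (adjusted p = 0.0624 for Klk1 and 0.137 for Kng2), and that of Kng2 was also lost with a pseudocount of 0.1.

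Of 17 genes known to regulate renin expression or release, 12 were tested in each comparison. In Six2+ cells 3 were lower and 2 higher than in Six2- cells, with a median of -0.04, a share close to the 38.6% of all genes that passed. Ebf1, a transcription factor, was 0.00595 to 0.122 against 10.7 to 13.8 (-3.65 ± 0.15, adjusted p = 4.24e-07). Nos1, the neuronal nitric oxide synthase of the macula densa, was 1.79 to 2.75 against 0.108 to 0.234 (1.52 ± 0.17, adjusted p = 0.00014).

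At P2 Nos1 was far higher than in Cited1+ cells, at 17.7 and 17.9 against 2.17, 2.09 and 2.15 (-2.58 ± 0.12, adjusted p = 1.94e-05). Adora1, the adenosine receptor through which renin release is restrained, had nearly the same pattern, at 17.2 and 16.8 against 2.34, 1.97 and 2.31 (-2.49 ± 0.12, adjusted p = 2.53e-05). Ptger4, a prostaglandin receptor on renin cells, was 1.44 ± 0.22 higher in Cited1+ cells (adjusted p = 0.00348). Of the 12 tested, 4 were lower and 1 was higher in Cited1+ cells, where 12.7% of all genes were lower and 16.3% higher, and 2 were lower without P2 replicate 2.

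Markers of the cells that make renin moved with Ren1 in the first comparison. Of 12 renin lineage and mural markers 10 were lower and 1, Des, was higher in Six2+ cells, with a median of -2.46. Of all genes 18.1% were lower and 20.5% higher. Akr1b7, a marker of renin cells in the mouse, was 0.0380, 0.104 and 0 in Six2+ cells and 6.23, 6.87 and 2.88 in Six2- cells (-2.53 ± 0.26, adjusted p = 7.74e-05). Acta2, Pdgfrb and Rgs5, genes of contractile and mural cells, differed by -4.75 ± 0.26, -4.66 ± 0.14 and -4.18 ± 0.22. The low Ren1 of Six2- replicate 3 came with the lowest Akr1b7, Rgs5 (15.8 against 25.9 and 29.5) and mural sum (268 against 369 and 400) of the 3 Six2- libraries.

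Stromal markers were lower in Six2+ cells for 11 of 11, where 18.1% of all genes were lower. Their median was -5.35 and their sum 91.2 to 114 against 2308 to 3410. Agtr2 and Agtr1a shared the order of the Six2- libraries in this sum, highest in replicate 1 and lowest in replicate 3. The ratio of Agtr2 to Pdgfra, a stromal receptor, was 0.462, 0.465 and 0.290 in Six2- cells, and 0.357, 0.371 and 0.397 in Cited1+ cells. In P2 cells it was 0.0902 and 0.519, and in Six2+ cells 0.416, 0.319 and 0.0617. Between Cited1+ and P2 cells 9 of 9 stromal markers tested were higher in Cited1+ cells, as were the Agtr2 values, where 16.3% of all genes were higher. Stromal sums were 150 to 164 against 48.3 to 59.1, and the stromal gene Tbx18 was at 0 in both P2 libraries. How far the members' differences come from the share of stromal or mural cells was not tested.

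Endothelial markers, which would mark another source of Ace, were lower in Six2+ cells for 9 of 9 tested, where 18.1% of all genes were lower. Their sums were 5.50 to 8.55 against 48.9 to 94.1. In the second comparison 0 of 4 endothelial markers passed by limma, where 29% of all genes passed in either direction. Their sums were 7.07 to 20.0 in Cited1+ cells and 7.39 to 9.22 at P2. Ren1 had no settled direction there, at 1.13 ± 0.63 by limma (adjusted p = 0.208) and -0.03 without P2 replicate 2. Mural markers could therefore not be compared with it by direction. Of 8 mural markers tested, 5 were lower in Cited1+ cells, among them Tagln (-1.23 ± 0.25, adjusted p = 0.0118) and Acta2 (-1.13 ± 0.18, adjusted p = 0.0042). Another 2 were higher, where 12.7% of all genes were lower and 16.3% higher. The mural sums were 90.9 to 102 against 96.9 to 118. The lower count was 3 without P2 replicate 1 and 1 without P2 replicate 2. Ren1 in that table did not follow Akr1b7 library by library. Akr1b7 was 1.31, 0.194 and 0.408 in Cited1+ cells, where Ren1 was lowest in the first and highest in the last, and 0.591 and 0 at P2, where the library at 0 was also the one nearly without Ren1.

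Genes with the pattern most like each member were found by Pearson r of log2(value + 1) over the 11 libraries, centred on the mean of each table, among 12434 genes. These values are a description of libraries that share groups and tables. Agtr2 was closest to Foxp2 (r = 0.999) and Figf (0.998), and 567 genes exceeded an r of 0.95 with it. Ren1 stood more alone, with Rab20 (0.984), Fam129a (0.966) and Acot9 (0.958) leading 7 genes above that level.

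Agtr1a was closest to Pde5a (0.984), Gdf10 (0.981) and Apbb1ip (0.978), with 88 genes above 0.95. Ace was closest to Acss1 (0.989), Hhat (0.983) and Prkcz (0.979), with 25 genes above it. Atp6ap2 had only 2, Vmp1 (0.961) and Slc35f5 (0.954), followed by Fam76a (0.928). No member was among the 3 closest genes of another.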

How the data were processed

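The authors sequenced mRNA from sorted cells, with RNA from the Qiagen RNeasy micro kit and Kapa stranded mRNA-Seq libraries, per the labels' protocols. Tools in the submitters' processing notes are bcl2fastq 2.17, TopHat2 and Partek, with the build mm10; the counting of reads and use of strand are not given in the sources used here. The deposited expression values are called TPM but scale as RPKM: plain sums varied over the libraries by 8.95% (coefficient of variation) and length-weighted sums by 2.47%. The planned design took them for TPM; its test fits both units and was used. RPKM shares a ceiling over genes, so abundant transcripts lower the rest. The deposited ratio (fold) and p-value columns are the authors' own and were used only where named; ratios in the deposited Cited1+ comparison use the first P2 library alone (100.0% of genes equal within a relative tolerance of 1e-06). The authors' mean columns were not used. A total of 27 rows per table with a date for a symbol were left out.

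The test was limma (version 3.58.1, R 4.3.3), with its trend option, on log2(value + 1) of the genes whose mean reached 1 in the comparison's libraries, with Benjamini-Hochberg adjustment over all genes and a threshold of 0.05. The fit was tested on simulated data, where it recovered 66% of genes changed by a log2 of 1 in each comparison. At a log2 of 2 it recovered 99% in the Six2+ and Six2- comparison and 92% in the Cited1+ and P2 comparison. A gene that did not pass may therefore still differ by a log2 of 1. The members and lists were chosen with earlier results of these data known. Named were the 6 members, Six2 and Cited1, the 3 passing genes of each list with the largest change, every passing peptidase and receptor partner, and the 3 genes most like each member. Agtr1b, Ren2, Mas1, Mrgprd, Akr1b7, Des, Cyp11b1, Cyp11b2 and Tbx18 were named after their values were seen; some genes under the rule are not reported here. Same-numbered Six2+ and Six2- libraries deviated together from their group means (r = 0.47, 0.45 and 0.40), a pairing seen in the data and not given by the labels; the tests reported are unpaired, and the pairing enters as the replicate block alternative. Depth was read from whole-read steps of low values, with read counts per gene approximate, and limits the precision of genes with few reads. Promoters are from RefSeq on GRCm38.p6, the build called mm10. Alternatives tried were a pseudocount of 0.1, no filter, 2 scalings, a replicate block, no trend and each library left out.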

Additional observations from a re-analysis of the deposited data

How the results depend on the processing

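Between Six2+ and Six2- cells Ren1, Agtr1a and Agtr2 were lower under all 12 alternatives. Atp6ap2 was -0.51 with no filter (adjusted p = 0.0806) and with no trend (0.0531), and -0.68 to -0.39 when single libraries were left out (0.0109 to 0.152). Genes called higher numbered 2440, and 1618 to 2382 with a library left out, lowest without Six2- replicate 2. The replicate block gave 3603 higher and 2632 lower genes and changed no call of a member. Of the calls 53.2% were higher, or 39.2% with each library rescaled to 1000000 and 42.4% with median-ratio scaling. Below the filter, Agt was -0.04, -0.33 with a pseudocount of 0.1 and -0.11 rescaled, and Ace was -0.82, -2.38 and -1.53 in that order.

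Between Cited1+ and P2 cells the lone P2 library left after leaving out the other is assumed to vary like the Cited1+ libraries. Same-numbered libraries did not deviate together there (r = 0.04 and -0.03). Genes called higher numbered 1930, with 1139 under no filter, 895 with the replicate block and 791 to 3012 with a library left out. Genes called lower numbered 1512, with 868 under the block and 788 to 2145 with a library left out. Of the calls 56.1% were higher, or 45.8% rescaled. With a library left out Ren1 ran from -0.03 to 2.30, Ace from 0.36 to 0.88, Agtr1a from -0.52 to 0.16, Agtr2 from 0.26 to 0.82 and Atp6ap2 from -0.43 to 0.07, all reversals coming without P2 replicate 2. With both P2 libraries kept, Ace was called only with no trend (0.62, adjusted p = 0.0431). Below the filter, Agt was 0.14, 0.99 with a pseudocount of 0.1 and 0.38 rescaled, and Agtr2 0.54, 1.48 and 0.95. For these changes the cause was not tested. Of 60 list counts, 14 moved by over 1.5 times with no filter, 10 with the block and 8 rescaled.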
